A study of Rattus norvegicus with 24 samples.

Results

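Complement and coagulation genes encode the plasma proteins that mark and lyse microbes and the plasma proteins that form and dissolve clots. The group examined here was a list of 35 gene symbols, and every row of the count table whose gene name equalled one of them, ignoring case, was taken. All 35 symbols were found, on 36 of the 32883 rows, because Cfb (complement factor B) had 2 identifiers. The samples were Sprague-Dawley rats aged 7 months, SAM-exposed or sham-exposed, with 3 libraries of messenger RNA per treatment from each of liver, brain, thymus and spleen, 24 in all. The treatment labels read SAM exposure and the series title speaks of PCB (polychlorinated biphenyl) exposure; no dose, duration, sex or brain region is given there. SAM animals carried the numbers 1, 2 and 3 in liver and brain and 1, 3 and 5 in thymus and spleen. Sham animals carried 13, 14 and 15 in liver, 13, 15 and 16 in brain, and 14, 15 and 17 in thymus and spleen. Whether libraries of different tissues with the same number came from the same rat is not said.

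Complement is started by antibody (through C1q with the proteases C1r and C1s), by sugars (through mannose-binding lectins with the proteases Masp1 and Masp2) or by the alternative pathway, and every route ends in cleavage of C3 and assembly of a membrane pore from C5b to C9. Coagulation is a chain of protease zymogens that ends in thrombin, which cleaves fibrinogen, while serpins, protein C and protein S limit it and plasmin dissolves the clot. Hepatocytes make most of these plasma proteins. Some are also made elsewhere: properdin by myeloid cells, and C1r, C1s and the C1 inhibitor by macrophages and stromal cells.

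Levels are given as CPM (the counts of a gene per mega counts of its library, scaled by TMM within each tissue), and differences as log2 values. A gene's levels are compared between libraries and tissues, and not with those of another gene, because transcript lengths were not used here. Each library held 12.9 to 20.1 M (mega) counts, so a level of 1 CPM rests on about that many counts in a library. The labelled tissues carried their defining transcripts: the summed level of 10 hepatocyte markers was 134000 to 170000 CPM in liver and at most 73.7 CPM elsewhere, 5 neuron markers summed to 5550 to 7330 CPM in brain, 6 thymocyte markers to 7410 to 8940 CPM in thymus, and 5 B cell markers to 2030 to 2580 CPM in spleen. Some libraries stood apart. In liver SAM 1 the mitochondrial transcripts made up 17.8% of counts (5.71 to 8.07% for the remaining liver libraries). Among brain libraries, SAM 1 and SAM 2 differed from each other by a chi-square per degree of freedom of 5.95 (1 would be sampling noise alone), and from SAM 3 by 72.6 and 55.6. Brain SAM 3 had the fewest counts of the 24 libraries (12.9 M) and a mitochondrial share of 10.5%, against 8.04 to 8.99% in the remaining brain libraries. In thymus, SAM 1 and Sham 15 had mitochondrial shares of 5.64 and 8.18%, against 2.95 to 3.64% in the other 4.

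The comparison of liver with each other tissue asked how far expression of the group is restricted to liver. Of the 36 rows, 34 had counts in liver. Both Cfb rows held 0 counts in all 24 libraries; since the 2 identifiers share a symbol and the counting rule for shared reads is not given, these zeros are not read as an absence of expression. All 34 tested genes were higher in liver than in brain and than in thymus, and 33 were higher in liver than in spleen (edgeR quasi-likelihood test over all 24 libraries, adjusted p under 0.05). Over all 17623 genes tested, 42.1% were called higher in liver than in brain, 36.7% than in thymus, 35.2% than in spleen, and 24.2% than in each of the 3, the last holding for 33 of the 34. The median log2 difference of the group was 11.48 against brain, 11.43 against thymus and 12.41 against spleen, beside 0, -0.24 and -0.26 over all genes. Fitted values of genes with almost no counts outside liver depend on the model's prior count, so for those the ratio of pooled counts over the 6 libraries of each tissue, per library total, is given below, with an exact 95% binomial interval that covers counting error only. With genes at 0 counts in the other tissue placed at their lower bound (a floor of 3 counts over its 6 pooled libraries), the median pooled ratio of the 34 genes was 931 for brain (5 genes at the bound), 802 for thymus (3) and 1820 for spleen (5). These ratios are on library totals and not on the TMM scale of the fit; the fitted median log2 difference with library totals only was 9.90, 9.64 and 10.77 against brain, thymus and spleen.

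**Figure D1:**
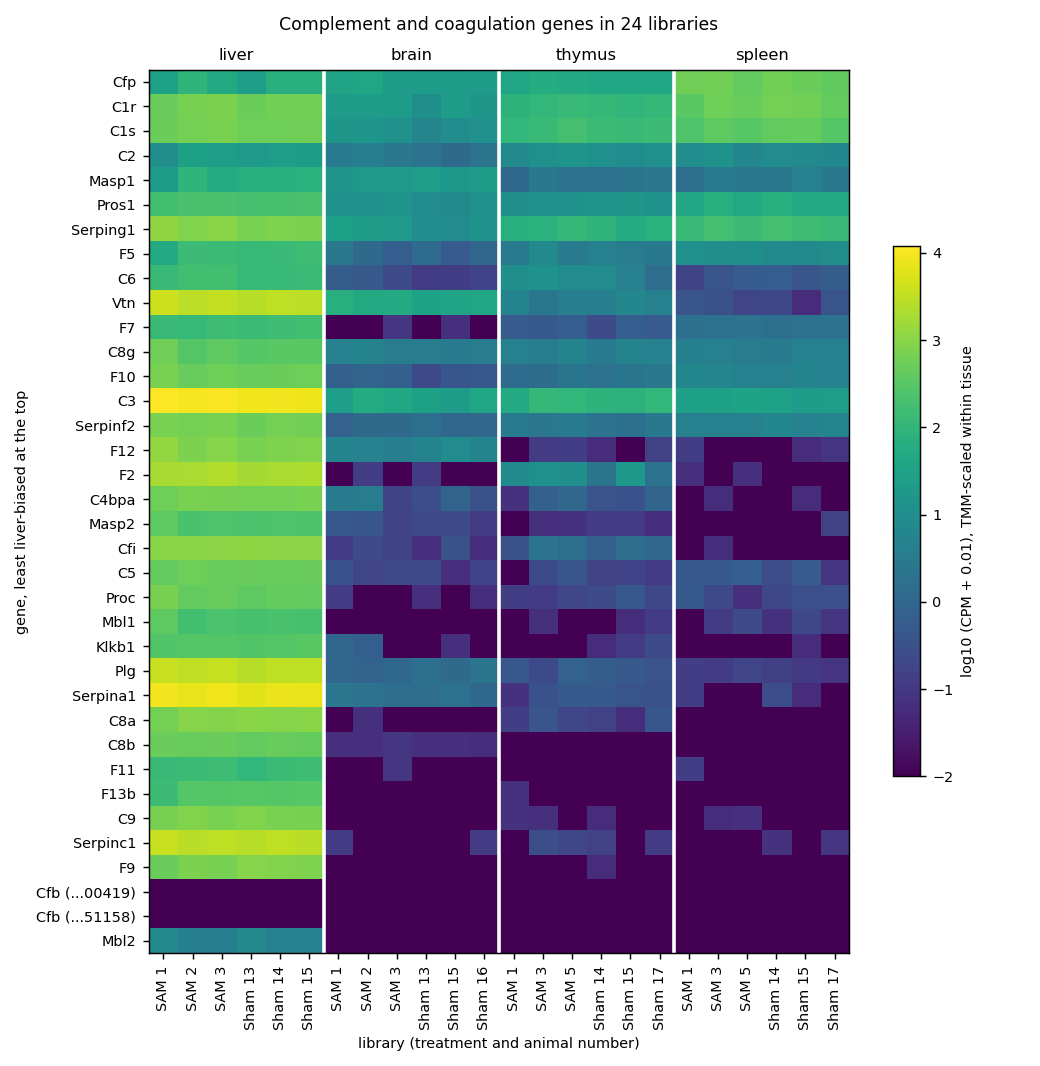
Level of each of the 36 rows (vertical axis, least liver-biased at the top) in each of the 24 libraries (horizontal axis, grouped by tissue) as log10 of CPM plus 0.01. The 6 liver columns are bright for most rows. Mbl2, at 3.86 to 7.21 CPM in liver, is darker there, and Cfb is at 0 throughout. Cfp at the top is brightest in the 6 spleen columns.

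Among members with counts outside liver, the fitted log2 difference from the next tissue, thymus, was largest for coagulation factor IX (17.3), antithrombin (16.31) and C9 (16.11). At so few counts this order is not firm. The pooled ratio to thymus was 30700 (5510 to 1210000) for F13b, 27300 (9350 to 133000) for C9 and 24800 for antithrombin, with overlapping intervals. F9 (ENSRNOG00000003430), the factor that cleaves factor X in the tenase complex and is deficient in haemophilia B, ranged from 489 to 945 CPM in liver with a median of 772 CPM. Its counts in the other 18 libraries came to 1, in a thymus library, against 74451 in liver. The liver level was thus at least 26100-fold higher than brain and at least 26500-fold higher than spleen, against a floor of 3 counts over the 6 pooled libraries, and the ratio to thymus was 83500 (15000 to 3300000). Serpinc1 (ENSRNOG00000002783), antithrombin, which inactivates thrombin and factor Xa, ranged from 2670 to 3620 CPM in liver with a median of 2910 CPM. It had 13 counts in thymus, 4 in brain and 2 in spleen, for pooled ratios of 24800 (14500 to 46600), 75600 (29500 to 278000) and 153000 (42500 to 1270000). C9 (ENSRNOG00000013736), the protein that polymerises into the membrane pore, ranged from 663 to 844 CPM in liver with a median of 726 CPM and had 3, 2 and 0 counts in thymus, spleen and brain. No liver library of these 3 genes came near any library of another tissue.

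More members of the terminal pathway, the lectin branch and the clotting chain were near 0 outside liver. F13b, the carrier subunit of the fibrin-crosslinking factor XIII, had 27385 counts in liver and 1 in all other libraries. F11, factor XI of the contact pathway, had 13325 in liver and 3 elsewhere (1 in brain, 2 in spleen). C8b, a chain of the pore component C8, had 44067 in liver, 6 in brain and 0 in thymus and spleen. C8a, its partner chain, had 89887 in liver, 24 in thymus, 1 in brain and 0 in spleen. Mbl2, a mannose-binding lectin, was low even in liver (3.86 to 7.21 CPM) and had 0 counts in the other tissues, so its liver level was at least 176-fold higher than brain, at least 188-fold higher than thymus and at least 179-fold higher than spleen. Its paralog Mbl1 stood at 173 to 366 CPM in liver, with 0 counts in brain, 4 in thymus and 12 in spleen.

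Cfp was the exception. Cfp (ENSRNOG00000025811) encodes properdin, which stabilises the alternative pathway's C3 convertase. It ranged from 386 to 619 CPM in spleen (median 549), from 26.1 to 96.0 CPM in liver (median 55.9), from 37.2 to 57.2 CPM in thymus and from 20.1 to 36.7 CPM in brain. On CPM scaled within each tissue, every spleen library lay far above every library of the other tissues, whereas liver and thymus libraries overlapped. Scaled by TMM over 24 libraries, the means were 399 CPM in spleen, 132 in liver, 31.6 in thymus and 21.2 in brain. In that fit Cfp was higher in liver than in thymus (2.07 ± 0.25, edgeR adjusted p = 1.79e-07). The liver level was below that of spleen by a log2 difference of -1.59 ± 0.25 (SE; edgeR adjusted p = 5.29e-06, n = 6 libraries per tissue).

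Next came the C1 proteases. Their inhibitor, with a log2 difference of 4.1 from spleen, is given with them. C1r (ENSRNOG00000011796) and C1s (ENSRNOG00000011971) form the protease complex that C1q activates. C1r ranged from 488 to 758 CPM in liver (median 606), 329 to 626 CPM in spleen (512), 83.6 to 134 CPM in thymus (106) and 10.6 to 23.3 CPM in brain (21.8), so liver and spleen libraries overlapped on this scale. C1s followed the same order, with 506 to 724 CPM in liver, 256 to 442 in spleen, 106 to 194 in thymus and 5.81 to 16.7 in brain. The difference of liver from spleen was 1.90 ± 0.17 for C1r (edgeR adjusted p = 2.1e-09) and 2.39 ± 0.17 for C1s (adjusted p = 3.21e-11). These values depend on the scaling across tissues: TMM over 24 libraries gave liver factors of 0.34 to 0.459 and factors of 1.19 to 1.49 elsewhere, and scaling by library totals only moved the median of all genes by -1.49, -1.72 and -1.56 against brain, thymus and spleen. With library totals only, the liver-spleen difference of C1r was 0.29 (adjusted p = 0.146) and no longer called, and Cfp was no longer called higher in liver than in thymus. Serping1 (ENSRNOG00000007457), the C1 inhibitor, which also blocks kallikrein and factor XIIa, ranged from 711 to 1160 CPM in liver, 133 to 186 in spleen, 57.1 to 109 in thymus and 8.48 to 27.6 in brain, with no overlap between any of the tissues.

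Beside Cfp, C1r and C1s, the members with a log2 difference under 4 between liver and the tissue next to it were C2, Masp1 and Pros1. C2 (ENSRNOG00000051235), the protease subunit of the classical C3 convertase, ranged from 10.1 to 28.7 CPM in liver (median 23.3) and from 7.15 to 13.6 CPM in thymus (median 11.2), with a log2 difference of 2.82 ± 0.23 (edgeR adjusted p = 2.01e-10). Scaled within each tissue, liver and thymus overlapped for C2 through liver SAM 1 (10.1 CPM), the other liver libraries being at 18 to 28.7. Its pooled ratio to thymus, per library total, was 2.14 (1.99 to 2.3). Masp1 (ENSRNOG00000001827), a protease of the lectin pathway, ranged from 21.0 to 95.4 CPM in liver and from 13.6 to 25.8 CPM in brain, against 1.11 to 2.86 CPM in thymus and 1.6 to 4.42 CPM in spleen. On CPM scaled within each tissue, liver and brain overlapped for Masp1 through liver SAM 1 alone. Its 21.0 CPM compares with 54.3 to 95.4 CPM in the other 5 liver libraries. This overlap belongs to that scale. In the fit with TMM over 24 libraries, the log2 difference of liver from brain was 3.31 ± 0.27 (edgeR adjusted p = 2.1e-10). Pros1, protein S, the cofactor of activated protein C, ranged from 171 to 214 CPM in liver, 41.3 to 63.7 in spleen, 10.8 to 16 in thymus and 8.06 to 14.7 in brain.

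**Figure D2:**
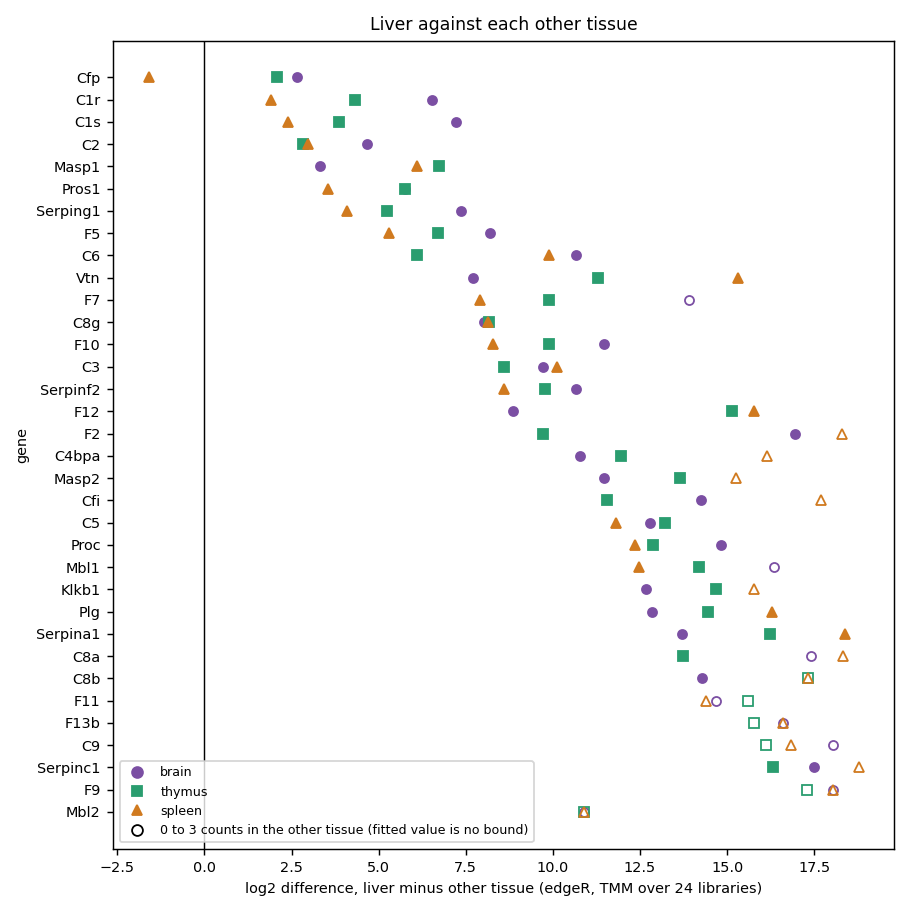
Log2 difference of liver minus brain (circles), thymus (squares) and spleen (triangles) for 34 genes (vertical axis); open marks have 0 to 3 counts in the other tissue, where the fitted value is not a bound. The spleen triangle of Cfp, at -1.59, is the only mark left of 0, and the smallest positive difference is C1r against spleen at 1.90.

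Low levels outside liver were distributed by gene. The contrasts between non-liver tissues were chosen after the liver contrasts had been seen. Brain was higher than both thymus and spleen for 8 members (35% of all genes tested were called so): Masp1, Masp2, C8b, C4bpa, F12, Plg, Serpina1 and Vtn. Vtn, vitronectin, which inhibits pore insertion and binds the plasminogen activator inhibitor, ranged from 33.4 to 67.3 CPM in brain, 2.36 to 6.46 CPM in thymus and 0.0485 to 0.4 CPM in spleen. F12, the contact factor XII, ranged from 3.89 to 8.67 CPM in brain and stayed at or below 0.152 CPM in thymus and spleen. The other brain members were at 3.51 CPM or less apart from Masp1, the call for C8b rests on 6 counts, and that for C4bpa was lost with library totals only.

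Thymus was the highest of the non-liver tissues for C3, C6, C8a, Cfi and F2 (5 members; 19.3% of all genes). C6, a component of the membrane pore, ranged from 1.47 to 12.2 CPM in thymus, 0.112 to 0.598 in brain and 0.171 to 0.66 in spleen. F2, prothrombin, stood at 2.13, 17.8 and 1.98 CPM in Sham thymus libraries 14, 15 and 17 and at 8.2, 10.9 and 10.8 CPM in SAM libraries 1, 3 and 5, against 4 counts in all of brain and 2 in all of spleen. The thymus library highest for F2, Sham 15, also had the highest sum of hepatocyte markers (73.7 CPM, of which albumin made 67.6) and of 5 adipocyte markers (912 CPM). SAM 1 was next for both sums (34.4 and 634 CPM), with 8.2 CPM of F2. SAM 3, at 8.53 and 159 CPM for those sums, had 10.9 CPM of F2, and Sham 17, at 8.59 and 74.8 CPM, had 1.98. The part of other cells in the F2 level was not tested. Spleen was the highest for 10 members (19.2% of all genes): Cfp, C1r, C1s, C5, F5, F7, F10, Serping1, Serpinf2 and Pros1. The call for C5 rests on 44 counts in spleen, at 0.0742 to 0.636 CPM, and its spleen libraries overlapped with those of brain and thymus. F5, factor V, the cofactor of factor Xa that platelets also carry, ranged from 8.01 to 11.2 CPM in spleen, 2.8 to 7.18 in thymus and 0.545 to 2.66 in brain. F7 and F10, the factors VII and X, ranged from 1.65 to 2.08 and from 4.42 to 6.28 CPM in spleen. C8g, the lipocalin chain of C8, overlapped between the 3 tissues, at 3.39 to 5.29, 3.19 to 5.31 and 2.97 to 4.56 CPM in brain, thymus and spleen.

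Several members are chromosomal neighbours. In RefSeq's rat annotation C1r and C1s, C8a and C8b, F7 and F10, F11 and Klkb1, and C2 and Cfb are pairs with 0 protein-coding genes between them. C1r and C1s shared one order of tissues (liver, spleen, thymus, brain), as did F7 and F10. That order is not particular to neighbours: F5, Serping1, Serpinf2 and Proc, which are in none of these pairs, had it too. F11 and Klkb1 did not share an order outside liver. F11 had 2 counts in spleen, 1 in brain and 0 in thymus, and Klkb1 had 31 in brain, 8 in thymus and 1 in spleen. C8a and C8b did not share their trace outside liver, which lay in thymus for C8a (24 counts) and in brain for C8b (6 counts).

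Upstream sequence was available for 28 of the 35 symbols, from RefSeq's rat build GRCr8, which is not the build rn6 that the submitters' processing notes name. The 250 bases before each annotated start were searched on both strands for core motifs of liver-enriched factors and for the core of aryl hydrocarbon receptor sites. A TATA box (TATAAA) was searched on the forward strand in a short stretch close to the start, and was in 0 of the 28 (1.35% of all). The HNF1 motif GTTAAT was found in 7 of the 28 windows (25%), those of C4bpa, C5, C8a, F13b, F2, Plg and Proc, and in 6.45% of the 33469 windows of all genes. The FOXA core TGTTTAC was found in 3 (10.7%; 3.21% of all), those of F11, F12 and Klkb1. The HNF4 core CAAAGTCCA and the C/EBP palindrome TTGCGCAA were in 0 of the 28 (0.338 and 0.14% of all), and the core GCGTG of aryl hydrocarbon receptor sites was in 5 (17.9%; 25.9% of all), those of C4bpa, Cfp, Klkb1, Masp1 and Serpinf2. A match is a run of letters and not a shown binding site. The windows below are read 5′ to 3′ toward the start, with matches in capitals. F9 and Serpinc1 are shown for the greatest fitted difference between liver and the tissue next to it. F13b and C8a had the greatest fitted difference among those with an HNF1 match, and Cfp and C1r are the least liver-biased.
F9 (GRCr8, chrX:143388392-143388641, plus strand): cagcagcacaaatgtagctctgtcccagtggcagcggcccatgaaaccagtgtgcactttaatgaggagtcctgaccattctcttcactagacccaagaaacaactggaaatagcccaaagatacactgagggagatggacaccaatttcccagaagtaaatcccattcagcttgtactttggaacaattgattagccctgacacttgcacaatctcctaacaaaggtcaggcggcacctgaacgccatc
Serpinc1 (GRCr8, chr13:75790308-75790557, plus strand): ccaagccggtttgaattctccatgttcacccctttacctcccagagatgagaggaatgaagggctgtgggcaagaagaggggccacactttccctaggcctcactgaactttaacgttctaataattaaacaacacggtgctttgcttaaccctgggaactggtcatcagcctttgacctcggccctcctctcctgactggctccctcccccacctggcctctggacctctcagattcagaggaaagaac
F13b (GRCr8, chr13:53681389-53681638, plus strand): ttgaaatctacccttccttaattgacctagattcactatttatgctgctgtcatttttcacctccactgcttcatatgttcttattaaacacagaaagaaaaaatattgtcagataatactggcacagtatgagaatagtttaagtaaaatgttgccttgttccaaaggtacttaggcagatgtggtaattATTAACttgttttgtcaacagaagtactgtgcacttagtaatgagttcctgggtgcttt
C8a (GRCr8, chr5:124866632-124866881, minus strand): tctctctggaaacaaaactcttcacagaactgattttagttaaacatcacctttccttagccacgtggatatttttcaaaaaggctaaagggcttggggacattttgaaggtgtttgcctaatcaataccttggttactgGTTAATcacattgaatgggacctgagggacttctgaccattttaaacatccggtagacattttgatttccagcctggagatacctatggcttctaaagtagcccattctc
Cfp (GRCr8, chrX:3715301-3715550, plus strand): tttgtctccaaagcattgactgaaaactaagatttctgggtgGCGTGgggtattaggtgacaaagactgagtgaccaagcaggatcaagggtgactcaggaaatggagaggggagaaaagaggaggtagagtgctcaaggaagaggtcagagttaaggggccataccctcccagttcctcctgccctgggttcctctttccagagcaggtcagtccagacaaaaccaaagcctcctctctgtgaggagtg
C1r (GRCr8, chr4:159098763-159099012, plus strand): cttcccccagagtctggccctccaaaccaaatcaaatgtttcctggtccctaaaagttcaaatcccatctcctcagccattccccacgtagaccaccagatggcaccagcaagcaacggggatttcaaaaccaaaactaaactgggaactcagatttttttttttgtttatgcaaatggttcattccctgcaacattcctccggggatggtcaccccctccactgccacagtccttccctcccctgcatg
The F13b match is on the reverse strand (ATTAAC) and that of C8a on the forward strand, while the capitals in Cfp mark GCGTG. F9, Serpinc1 and C1r held none of the motifs searched.

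The exposure comparison asked which of these transcripts differed between SAM and Sham animals within a tissue. After the filter on low counts the liver fit tested 34 members, the brain fit 17, the thymus fit 18 and the spleen fit 14. In brain F10 passed the filter through the SAM group alone. F5 reached the filter's level in all SAM libraries and in Sham 13 and 16, but not in Sham 15. In thymus Cfi reached it in all Sham libraries and in SAM 3 and 5, but not in SAM 1. C4bpa passed in brain through SAM 1, SAM 2 and Sham 15, at 3.37, 3.51 and 0.848 CPM, and stays in the counts below. F10 passed through the group where it was higher, so its difference is given as values only. F5 is left out of the brain median below as well. By edgeR's quasi-likelihood test, adjusted over all genes of the tissue, 0 members passed in each tissue, as did 0% of all genes. DESeq2 called 0 members in liver, thymus and spleen and 2 in brain. At an unadjusted p under 0.05 edgeR had 9 members in brain (8 without F10) and 1 in thymus, and 0 in liver and in spleen; for liver, brain, thymus and spleen this compares with 2.7, 20.5, 6.13 and 4.11% of all genes. The SAM and Sham libraries did not overlap for 6 members of the liver set (3 above, 3 below), 9 of the brain set (8 above, 1 below; 7 above without F10), 1 of the thymus set and 2 of the spleen set, beside 10.8, 23.8, 11.9 and 9.22% of all genes. In whole tissue, fewer cells of a type and less RNA per cell cannot be told apart.

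**Figure D3:**
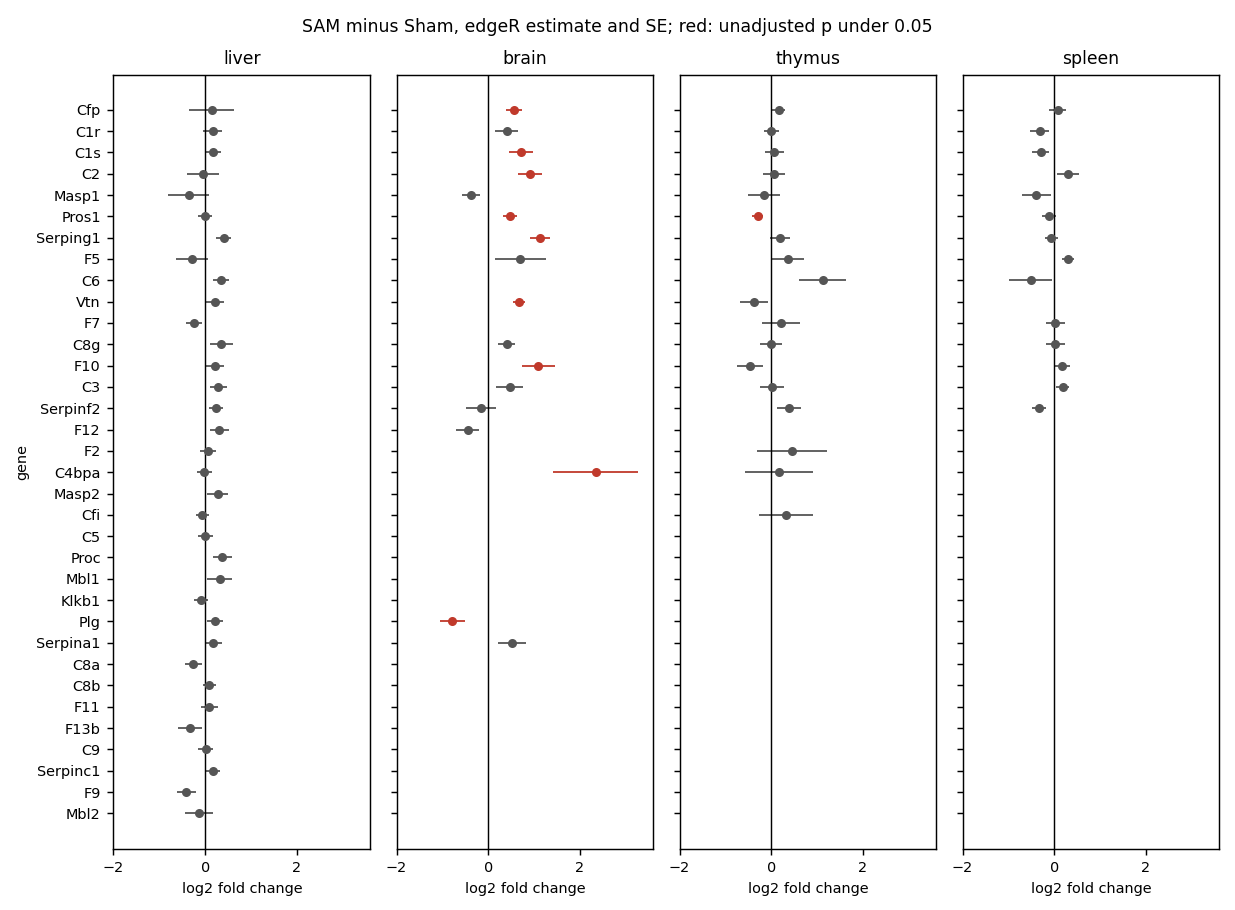
Log2 fold change of SAM minus Sham with its standard error (horizontal axis) for each tested gene (vertical axis) in the 4 tissues; red points have an unadjusted p under 0.05. Of the 10 red points 9 are in brain (8 without F10) and 1, Pros1, in thymus, and none passed after adjustment.

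In liver, where these genes are abundant, the differences were small: the median log2 fold change was 0.12 (0.02 over all genes), single values ran from -0.41 to 0.40, and the lowest adjusted p was 0.802. Serping1, the C1 inhibitor, stood at 1160, 834 and 967 CPM in SAM 1, 2 and 3 and at 711, 789 and 752 CPM in Sham 13, 14 and 15. All 3 SAM libraries lay above all Sham libraries, SAM 2 by a small margin, for a log2 fold change of 0.40 ± 0.17 (edgeR, unadjusted p = 0.0523). F9 stood at 489, 745 and 693 CPM in SAM and 945, 818 and 799 CPM in Sham, with every SAM library lower and a log2 fold change of -0.41 ± 0.20 (edgeR, unadjusted p = 0.0733). C6 stood at 124, 169 and 174 CPM in SAM and 116, 118 and 135 CPM in Sham, an overlap through SAM 1, with 0.34 ± 0.18 (edgeR, unadjusted p = 0.0909). C3, the central component and the most abundant by counts, stood at 11900, 9700 and 11200 CPM in SAM and 8890, 9470 and 8570 CPM in Sham (0.29 ± 0.18).

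SAM 1, the library with the high mitochondrial share, lay farthest from the other liver libraries. Of the 34 members 8 lay more than 0.5 above and 7 more than 0.5 below the mean of the other 5 liver libraries on the log2 scale (44.1% of members, beside 53.3% of all tested genes in that library). In the other 5 libraries 0 to 8.82% of members did so. The low ones in SAM 1 included Masp1 (21.0 CPM), F5 (53.0 CPM against 120 to 158 in the others), C2 (10.1 against 18 to 28.7) and F13b (143 against 290 to 311). The high ones included Mbl1 (366 against 173 to 226), C8g (569 against 288 to 379), Proc, the zymogen of protein C (690 against 380 to 472), and Masp2 (379 against 219 to 251). Without SAM 1 edgeR called 0 members and had 3 at an unadjusted p under 0.05 (3.55% of all genes). Without SAM 2 it called 0 and had 6 (15.2% of all genes). Leaving out SAM 1, the log2 fold change was 0.26 for Serping1, -0.25 for F9 and 0.48 for C6. Whether the mitochondrial share has a part in these deviations was not tested.

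**Figure D4:**
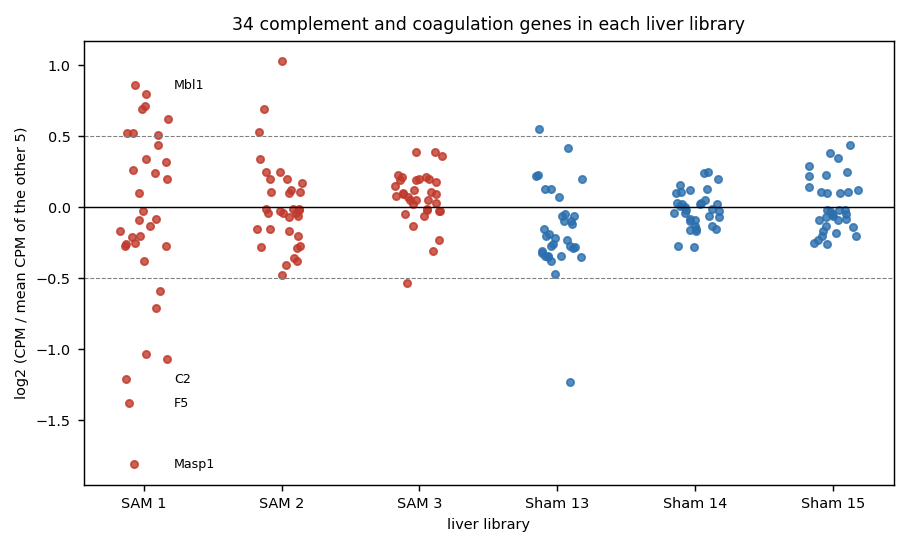
Deviation of each of the 34 genes in each liver library from the mean of the other 5, on the log2 scale (vertical axis; dashed lines at 0.5 and -0.5; red SAM, blue Sham). Points of SAM 1 spread from Masp1 at -1.81 to Mbl1 at 0.86, with 15 of 34 outside the dashed lines, while the other libraries have 0 to 3 outside.

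Brain held most of the nominal differences, at levels far below those of liver. Over the 15 tested members other than F5 and F10, 11 had a positive log2 fold change, the median was 0.48 (0.01 over all genes) and the lowest adjusted p was 0.221; 20.5% of all brain genes had an unadjusted p under 0.05, and the members' count is read against that share. Serping1 stood at 27.6, 21.5 and 18.6 CPM in SAM 1, 2 and 3 and at 9.38, 8.48 and 13.1 CPM in Sham 13, 15 and 16. Every SAM library lay above every Sham library, with a log2 fold change of 1.13 ± 0.22 (edgeR, unadjusted p = 0.00142, adjusted p = 0.221; DESeq2 adjusted p = 0.00149). Vtn stood at 67.3, 48.9 and 53.2 CPM in SAM and 33.4, 35.6 and 37.9 CPM in Sham, also without overlap, with 0.67 ± 0.13 (edgeR, unadjusted p = 0.00177, adjusted p = 0.221; DESeq2 adjusted p = 0.00626). These are the members that DESeq2 called, beside 3.33% of all brain genes.

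Among the activating components in brain, C2 stood at 3.32, 4.16 and 2.75 CPM in SAM and 2.01, 1.27 and 2.16 CPM in Sham (log2 fold change 0.91 ± 0.27). Cfp stood at 34.5, 36.7 and 23.2 CPM in SAM and 21.4, 20.1 and 22.6 CPM in Sham (0.56 ± 0.18), and C1s at 16.7, 15.5 and 13 CPM in SAM and 5.81, 9.7 and 12.1 CPM in Sham (0.72 ± 0.26). In these 3 genes SAM 3 was the lowest SAM library and still lay above the highest Sham library by a small margin. C1r, the partner of C1s, stood at 21.7, 22.8 and 22 CPM in SAM and overlapped with Sham (10.6, 23.3 and 16.6 CPM).

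On the coagulation side of brain, Pros1 stood at 12.4, 12 and 14.7 CPM in SAM and 8.88, 8.06 and 10.9 CPM in Sham (0.48 ± 0.15). F10, the zymogen of the protease that makes thrombin, stood at 0.707, 0.952 and 0.729 CPM in SAM and 0.223, 0.424 and 0.464 CPM in Sham (1.09 ± 0.36), on 58 counts in the 6 libraries together, and is the member that reached the test through its SAM level. Plg, plasminogen, went the other way, at 0.978, 0.833 and 1.13 CPM in SAM and 1.62, 1.27 and 2.11 CPM in Sham (-0.78 ± 0.28, 137 counts), with every SAM library below every Sham library. C4bpa, the alpha chain of C4b-binding protein, an inhibitor of the classical convertase, stood at 3.37, 3.51 and 0.162 CPM in SAM and 0.279, 0.848 and 0.309 CPM in Sham (2.34 ± 0.92). Its groups overlapped, because SAM 3 was the lowest of the 6 libraries.

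Klkb1, plasma prekallikrein, did not pass the filter in brain. It stood at 1.03 and 0.654 CPM in SAM 1 and 2 and at 0, 0, 0.0606 and 0 CPM in SAM 3 and Sham 13, 15 and 16, on 31 counts in all. Like C4bpa it was high in SAM 1 and SAM 2 alone. Without SAM 3 edgeR called 8 members in brain (C4bpa, Serping1, Vtn, C1s, Klkb1, Cfp, C8g and C2), beside 38.1% of all genes tested in that fit. C4bpa and Klkb1 passed the filter of that fit through SAM 1 and SAM 2, where they were high, so for them the values alone are read. With SAM 3 as the lone SAM library, assumed to vary like the Sham libraries, 0 members and 1 gene in all passed, so that fit gives values and not a contrast of calls: the log2 fold change was 0.85 for Serping1, 0.58 for Vtn, 0.66 for Pros1, 0.12 for Cfp and -1.49 for C4bpa.

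**Figure D5:**
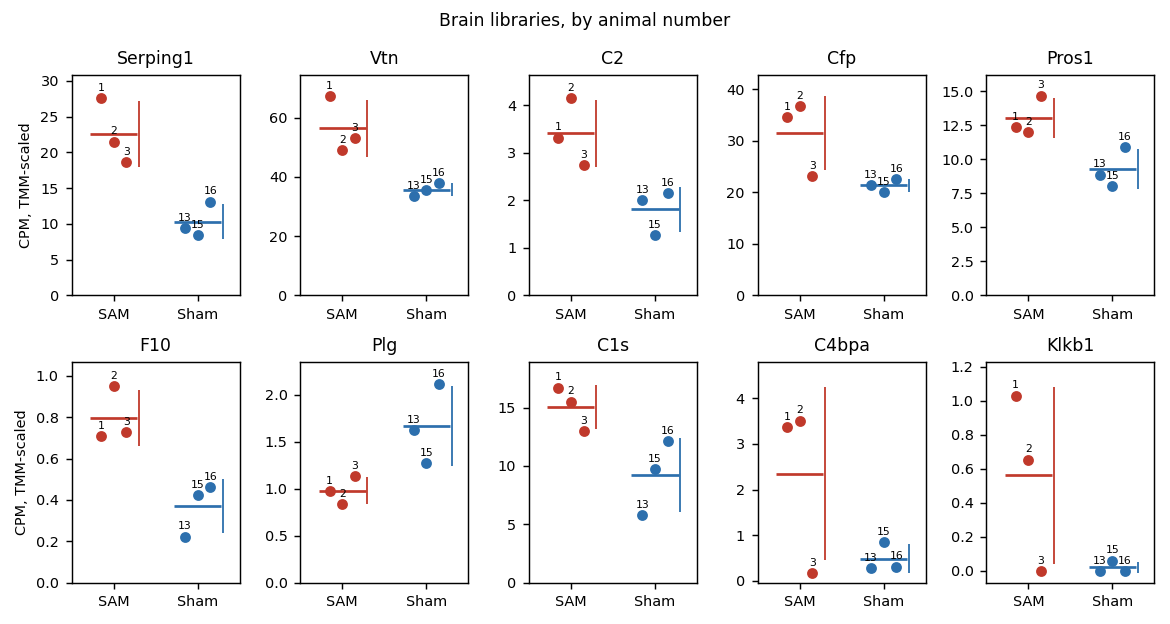
CPM of the 9 genes with an unadjusted p under 0.05 in brain, and of Klkb1, in each brain library (points with animal numbers; horizontal lines are means and vertical lines ± 1 SD of 3 libraries). SAM lies above Sham without overlap for 7 genes and below it for Plg. F10, among the 7, reached the test through its SAM level, so its separation is given as values only. C4bpa and Klkb1 are high in SAM 1 and 2 and low in SAM 3.

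Markers of other cell types moved beside these values in brain, and their part in them was not tested. The summed level of 6 fibroblast and stellate cell markers was 237, 229 and 274 CPM in SAM and 180, 165 and 203 CPM in Sham; all 6 had positive log2 fold changes, and Col1a1 (1.37), Col3a1 (1.11) and Dcn (1.05), transcripts of stromal matrix, had an unadjusted p under 0.05. The 5 markers of choroid plexus and meninges summed to 13.1, 14.3 and 9.72 CPM in SAM and 3.41, 2.67 and 6.64 CPM in Sham. Transthyretin (Ttr), the defining transcript of choroid plexus, was at 2.19 CPM or less in every brain library, and Folr1 at 0.206 CPM or less. The 5 endothelial markers overlapped (142 to 211 CPM in SAM, 140 to 163 in Sham), as did the 4 microglial markers (84.2 to 151 and 106 to 155). The sum of 5 neuron markers was lower in SAM (5550 to 6500 against 6750 to 7330 CPM), with 4 negative, while Gad1, a marker of GABA neurons, stood at 1460, 1300 and 227 CPM in SAM 1, 2 and 3 and 243, 267 and 253 CPM in Sham, so that, like C4bpa and Klkb1, it was high in SAM 1 and SAM 2 alone. The sum of 4 oligodendrocyte markers was 3790 to 5180 CPM in SAM and 5130 to 6130 CPM in Sham, all 4 negative and 2 with an unadjusted p under 0.05, and that of 4 astrocyte markers was 1840 to 2230 against 1410 to 1620 CPM, all 4 positive and 1 with such a p. Hepatocyte markers summed to 11, 12.5 and 21.2 CPM in SAM and 18.4, 15 and 13.7 CPM in Sham, an overlap; of the 3 tested, Alb (-0.26) and Cps1 (-0.67) were negative and Ttr, which stands in both lists, was positive (4.42), and Tat and Ahsg had 0 counts in all 6 libraries.

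In thymus 1 of the 18 tested members had an unadjusted p under 0.05, and the median log2 fold change was 0.11 (0 over all genes). Pros1 stood at 10.8, 11.8 and 12.3 CPM in SAM 1, 3 and 5 and at 13.8, 16 and 13 CPM in Sham 14, 15 and 17. Every SAM library lay below every Sham library, for a log2 fold change of -0.29 ± 0.12 (edgeR, unadjusted p = 0.0474, adjusted p = 0.812). C6 stood at 10.5, 12.2 and 8.41 CPM in SAM and 8.45, 4.41 and 1.47 CPM in Sham (1.12 ± 0.51; edgeR, unadjusted p = 0.0617), where SAM 5 and Sham 14 overlapped by a narrow margin. C6 was 1.82 without Sham 14 and 0.69 without Sham 17, with adjusted p of 0.8 and 0.701. F10 stood at 1.29, 1.4 and 2.28 CPM in SAM and 1.92, 2.26 and 2.64 CPM in Sham (-0.46 ± 0.28). The markers of thymic epithelium, on which T cells are selected, summed to 716, 883 and 840 CPM in SAM and 1300, 1370 and 1240 CPM in Sham, with all 7 negative; their part in the values of Pros1 and the others was not tested.

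In spleen 0 of the 14 tested members had an unadjusted p under 0.05, the median log2 fold change was -0.03 (0 over all genes) and the lowest adjusted p was 0.967. Serpinf2, alpha-2-antiplasmin, the main inhibitor of plasmin, stood at 4.34, 4.58 and 4.4 CPM in SAM 1, 3 and 5 and 6.14, 5.05 and 5.72 CPM in Sham 14, 15 and 17, all lower in SAM (-0.34 ± 0.15; edgeR, unadjusted p = 0.057). F5 stood at 11.2, 10.2 and 10.5 CPM in SAM and 8.12, 8.01 and 9.95 CPM in Sham, all higher in SAM (0.29 ± 0.13; edgeR, unadjusted p = 0.0576). C1s stood at 256, 376 and 306 CPM in SAM and 420, 442 and 296 CPM in Sham (-0.30 ± 0.18), with overlap. Cfp, the member that spleen expresses above liver, stood at 576, 609 and 413 CPM in SAM and 619, 522 and 386 CPM in Sham (0.07 ± 0.19).

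A joint test of the 3 interaction terms in the fit over all 24 libraries asked whether the SAM-minus-Sham difference depended on the tissue. Of the 34 members 0 passed after adjustment (0.0113% of all genes did), and 6 had an unadjusted p under 0.05, beside 9.2% of all genes. DESeq2 called 1, Klkb1, beside 1.91% of all genes. The lowest p was that of Klkb1 (edgeR, unadjusted p = 0.00117, adjusted p = 0.185), whose brain values are given above; in liver it stood at 262, 276 and 281 CPM in SAM and 263, 284 and 326 CPM in Sham (-0.09 ± 0.15), and it had 8 counts in thymus and 1 in spleen. Serping1 was next (edgeR, unadjusted p = 0.00875, adjusted p = 0.371), with log2 fold changes of 0.40, 1.13, 0.19 and -0.07 in liver, brain, thymus and spleen. F10 followed (edgeR, unadjusted p = 0.0163, adjusted p = 0.412), with 0.21, 1.09, -0.46 and 0.17 in the same order. Without brain SAM 3 edgeR called C4bpa and Klkb1, 2 of the members, beside 5.52% of all genes.

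The rest of the pathway was read from 71 further symbols (66 rows), the other complement, coagulation and fibrinolysis genes with their receptors, cell-surface regulators and vitamin K enzymes. The fits tested 51 (liver), 44 (brain), 49 (thymus) and 48 (spleen) of these, and edgeR called 0 in each. At an unadjusted p under 0.05, SAM was higher for 2 liver, 8 brain, 0 thymus and 3 spleen genes and lower for 0, 2, 6 and 0. These are 3.92, 22.7, 12.2 and 6.25% of the further genes tested, beside 2.7, 20.5, 6.13 and 4.11% of all genes, so the brain share is near its background. In brain the lowest p was that of Plat, tissue plasminogen activator, at 57.1, 52.6 and 54.5 CPM in SAM and 42.3, 41.5 and 39.9 CPM in Sham (0.41 ± 0.07). It was followed by S100a10, a plasminogen-binding partner of annexin A2 (-0.62 ± 0.15), and by C4a (0.85 ± 0.22), a copy of complement C4 whose reads may be shared with C4b (0.70 ± 0.24). C7, a pore component, stood at 5.71, 4.1 and 3.4 CPM in SAM and 1.95, 2.24 and 2.99 CPM in Sham (0.88 ± 0.27), with no overlap.

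In thymus the 6 further genes were Anxa2 (-0.41 ± 0.08), F3 (-0.86 ± 0.18), C3ar1 (-1.20 ± 0.27), Plau (-0.57 ± 0.16), Serpine2 and F2r. F3, tissue factor, the starter of coagulation, stood at 40.7, 33.3 and 37.0 CPM in SAM and 66.5, 84.9 and 49.7 CPM in Sham, and all 6 had every SAM library below every Sham library. C3ar1, the receptor for the C3a fragment, stood at 0.678, 0.617 and 0.443 CPM in SAM and 1.47, 1.29 and 1.27 CPM in Sham thymus. In spleen the same gene was at 3.31, 3.09 and 3.53 CPM in SAM and 2.31, 2.28 and 2.23 CPM in Sham (0.54 ± 0.17), with every SAM library higher. Itgax, a chain of complement receptor CR4 (0.32 ± 0.08), and F2rl3, the thrombin receptor PAR4 (0.73 ± 0.24), were the others in spleen. In liver they were C4a (0.39 ± 0.15), with every SAM library higher, and S100a10 (0.68 ± 0.29), with overlap.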

How the data were processed

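RNA was sequenced from 4 rat tissues, 3 libraries per treatment and tissue; per the labels' protocols, RNeasy columns and a stranded TruSeq mRNA kit were used. STAR 2.2.1 and build rn6, per the submitters' processing notes, are named; which program counted the reads, with what annotation and strand setting, is not stated there. The values are raw counts, deposited by the authors in 1 table with a row per gene and a column per library, of which 0 lacked a listed sample. Reads of overlapping genes or near-identical copies (Cfb, C4a and C4b, Serpina1) may have been shared out between rows by a rule not known here.

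Tissue and animal number tied each column to its sample. The 6 libraries of a tissue were fitted by themselves in R 4.3.3 using edgeR 4.0.16 (filterByExpr, TMM, quasi-likelihood test, Benjamini-Hochberg over all tested genes, threshold 0.05). Liver was compared with each other tissue, and the differences between tissues were tested by interaction, in 1 fit over 24 libraries and 8 groups. DESeq2 1.42.0, other scalings, no filter, and leaving out libraries were alternatives. The scripts were tested on simulated counts. CPM are scaled within tissue; ± is SE of a log2 value. Nothing says that replicates are separate animals beyond their numbers, so p-values measure the spread between these libraries. The members, roles and lists were chosen with earlier results of these data known. Per-library values are given for members with an unadjusted p under 0.05 (or the 3 lowest p), the 3 lowest interaction p, members higher outside liver, the 3 smallest and 3 largest liver differences, and up to 4 further pathway genes per tissue; others were picked after their values were seen.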

Additional observations from a re-analysis of the deposited data

How the results depend on the processing

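The 0 calls in liver, thymus and spleen stayed 0 under DESeq2, RLE scaling, no low-count filter and each library left out. In brain DESeq2 called 2 members, and leaving out each library in turn gave 0 to 8, the 8 without SAM 3. Of those 8, C4bpa and Klkb1 passed the filter through SAM 1 and SAM 2, where they were high. For the difference between tissues DESeq2 called 1 member and leaving out each library gave 0 to 2, the 2 without brain SAM 3, beside 1.91 and 5.52% of all genes. The brain log2 fold change of C4bpa reversed to -1.49 with SAM 1 and SAM 2 both left out. In these cases the cause was not tested. Counts of members higher in liver stayed within 1.5 times under each alternative run, including 34, 33 and 32 with library totals only. Same-numbered libraries of different tissues had deviations that correlated at -0.004 to 0.222 over 25 pairs, 5 of them over 0.1. No differently numbered libraries are set beside these, so the values cannot decide whether equal numbers are the same rat. The main fit did not take the numbers as pairs. With the animal number as a replicate block 34, 34 and 33 members were higher in liver than in brain, thymus and spleen, and 0 differed between tissues. Within a tissue no paired analysis was possible because SAM and Sham animals share no number. At these depths a member with 0 counts in 6 pooled libraries may be expressed at up to 0.0278 to 0.0296 CPM, for counting error only.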
